A study of Mus musculus with 4 samples.

Results

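Heparan sulfate enzymes are the 10 genes Ext1, Ext2, Ndst1, Ndst2, Glce, Hs2st1, Hs6st1, Sulf1, Sulf2 and Hpse, which build, sulfate, trim and cut the heparan sulfate chains of the cell surface and basement membrane. They were taken by symbol from a deposited table of 17915 coding genes, and all 10 were present and passed the filter on low counts. The family was chosen by the deposited counts and TPM of Sulf1, which stood evenly higher in the tdTomato+ libraries, so the differences of the 10 enzymes between the groups are given as a description and not as a test. All mice carried Cdh5-CreER;aSMA-LSL-Dre;NR1, received tamoxifen 5 times, and are labelled TAC 6w, transverse aortic constriction (a narrowing of the aorta) of 6 weeks. Cdh5-CreER is a tamoxifen-dependent recombinase driven by the VE-cadherin gene of endothelial cells, the Dre recombinase is read from the alpha smooth muscle actin locus (aSMA, Acta2), and the reporter turns endothelial cells ZsGreen+ and, once that locus has been active even for a short time, tdTomato+. The mark is permanent, so a tdTomato+ cell need not have been transcribing Acta2 when it was sorted. Bulk RNA sequencing covered 2 libraries of tdTomato+ lung endothelial cells and 2 of ZsGreen+ cells, each titled a biological replicate. No group without tamoxifen or without TAC was analysed here, age and sex are not given in the labels, and nothing says whether libraries came from separate or pooled mice, so the spread given is that between libraries and may be technical.

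The libraries held estimated counts that summed, in units of 1000000, to 17.1 to 18.6. Acta2, the gene the recorder reads, stood at 303.7 and 527.2 CPM in the tdTomato+ libraries and at 87.6 and 82.9 CPM in the ZsGreen+ libraries. CPM are counts per 1000000 of a library scaled with TMM, which compares 1 gene between libraries, and TPM are the authors' length-corrected values, which also compare genes with each other. Markers of the labelled cell type were present in every library. The 10 endothelial markers summed to 9702.9 and 9558.7 CPM in tdTomato+ and 12555.1 and 10794.0 CPM in ZsGreen+ libraries, with 5 of 10 lower and 1 higher in both tdTomato+ libraries and none called by edgeR. Of all genes tested, 18.2% were lower and 19.9% higher in both. In bulk RNA, fewer cells with a transcript and less transcript per cell cannot be told apart.

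Heparan sulfate is a long sugar chain attached to core proteins such as syndecans, glypicans and perlecan. It is polymerised in the Golgi, where part of its glucosamine is de-acetylated and N-sulfated, its glucuronic acid is epimerised, and sulfate is added at the 2-O, 6-O and, rarely, 3-O positions. The pattern of sulfates decides which growth factors, morphogens and chemokines the chain holds. After export, Sulf1 and Sulf2 remove 6-O-sulfates outside the cell and heparanase cuts the chain, so the pattern can be edited at the cell surface. In vessels the chains form much of the glycocalyx and of the basement membrane.

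Sulf1 and Sulf2 are paralogs, and the sequences below show how far their transcripts can be told apart by reads. Over the longest complete coding models in GENCODE M21 (GRCm38), of 2610 and 2625 coding bases, 72.1% of 2487 aligned bases were identical. Their longest exact shared run was 20 bases, shown in capitals with 30 coding bases on each side. The Sulf1 stretch joins exons 4 and 5 between positions 12786650 and 12796796 of chromosome 1 (plus strand), and the Sulf2 stretch joins exons 2 and 3 between positions 166117081 and 166132636 of chromosome 2 (minus strand).
Sulf1: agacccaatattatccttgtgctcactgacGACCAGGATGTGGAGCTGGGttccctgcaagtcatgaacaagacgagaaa
Sulf2: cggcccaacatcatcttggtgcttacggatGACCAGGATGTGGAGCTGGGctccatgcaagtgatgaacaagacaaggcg
The 80-base windows differed at 16 positions, all outside the shared run. The longest shared run was 12 bases for Ext1 and Ext2 and 23 bases for Ndst1 and Ndst2. The deposited counts of Sulf1, Sulf2, Ext1 and Ext2 were whole numbers, within 1e-06, in all 4 libraries, as were those of Ndst2, Hs6st1, Glce and Hpse. Those of Ndst1 and Hs2st1 were not whole in any library, as when reads are shared among features. This adds to these values an uncertainty whose size was not tested.

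Sulf1, the extracellular 6-O-endosulfatase that gave the family its place, was 4.09-fold higher in tdTomato+ cells. It stood at 80.7 and 88.3 CPM in tdTomato+ libraries and at 20.7 and 20.6 CPM in ZsGreen+ libraries. The libraries of each group lay close together and the groups did not overlap, the pattern for which the family was picked. On the TPM scale the levels were 28.8 and 30.0 against 5.68 and 7.05. The log2 fold change was 2.03 (SE 0.18). Sulf1 was the only enzyme of the 10 that edgeR's test over the whole table called higher, where 0.167% of 13177 genes were; since the family was picked for it, nothing is read from that count. The call ended without tdTomato+ replicate 1 and without tdTomato+ replicate 2, with log2 fold changes of 2.09 and 1.99; those fits called 0.126% and 0.0295% of all genes. It held in the other 11 alternatives, among them DESeq2, which called 2.44% of genes, and the fit with a replicate block, which called 7.09%. The Sulf1 locus (NCBI Gene 240725) runs from 12692197 to 12861192 on chromosome 1, GRCm38.

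Sulf2, the second extracellular 6-O-endosulfatase, stood at 15.9 and 32.0 CPM in tdTomato+ libraries and at 13.5 CPM in both ZsGreen+ libraries. Only tdTomato+ replicate 2 stood well above the others, and replicate 1 lay just over the ZsGreen+ libraries. The log2 fold change of 0.83 (SE 0.35) was not called. It was 0.26 without tdTomato+ replicate 2 and 1.24 without tdTomato+ replicate 1, so that single library sets most of its size. Sulf2 (NCBI Gene 72043) spans 166073899 to 166155683 on chromosome 2.

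Hpse encodes heparanase, the endoglucuronidase that cuts heparan sulfate chains into fragments. It stood at 9.24 and 17.8 CPM in tdTomato+ libraries and at 4.62 and 5.37 CPM in ZsGreen+ libraries. Both tdTomato+ libraries were above both ZsGreen+ libraries, again with replicate 2 the highest. The log2 fold change was 1.44 (SE 0.40) and was called only with the replicate block. It was 0.91 without tdTomato+ replicate 2 and 1.83 without tdTomato+ replicate 1. Hpse rests on 168 and 340 counts in tdTomato+ and 73 and 98 counts in ZsGreen+ libraries. It spans 100679484 to 100719716 on chromosome 5.

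**Figure D1:**
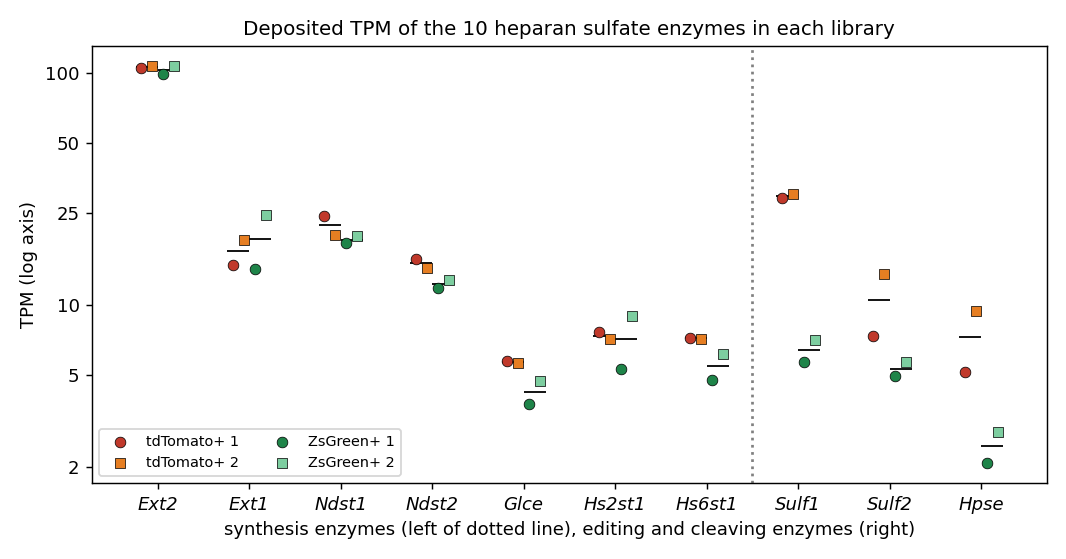
Deposited TPM (log axis) of each enzyme in the 2 tdTomato+ libraries (red circle, orange square) and the 2 ZsGreen+ libraries (dark green circle, light green square); short black lines are group means. Sulf1 stands at 28.8 and 30.0 TPM against 5.68 and 7.05, Sulf2 and Hpse are highest in tdTomato+ replicate 2, and the synthesis enzymes lie near the same level in both groups.

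The chain polymerases Ext1 and Ext2, which act together as a complex that adds alternating glucuronic acid and N-acetylglucosamine, did not follow Sulf1. Ext2 stood at 174.5 and 187.1 CPM in tdTomato+ and 202.4 and 185.9 CPM in ZsGreen+ libraries, with a log2 fold change of -0.10 (SE 0.17) that became 0.05 on the TPM scale. Ext1 was read at 29.8 and 40.5 CPM in tdTomato+ and at 35.6 and 51.2 CPM in ZsGreen+ libraries, a log2 fold change of -0.31 (SE 0.26). The groups overlapped for both genes. In each group the library numbered 2 had more Ext1 than the library numbered 1, by 1.36-fold in tdTomato+ and 1.44-fold in ZsGreen+ cells. Without ZsGreen+ replicate 2 the Ext1 difference was -0.02 and without ZsGreen+ replicate 1 it was -0.54.

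The N-deacetylase/N-sulfotransferases Ndst1 and Ndst2, whose N-sulfation comes before most later sulfation, had levels close to each other in the groups. Ndst1 stood at 140.0 and 124.0 CPM in tdTomato+ and 138.4 and 119.0 CPM in ZsGreen+ libraries, with overlapping groups and a log2 fold change of 0.04 (SE 0.18), which was 0.20 on the TPM scale and below 0 without tdTomato+ replicate 1 (-0.06) or ZsGreen+ replicate 2 (-0.07). Ndst2 was read at 36.0 and 34.6 CPM, with 33.3 and 30.8 CPM in ZsGreen+ libraries, a log2 fold change of 0.14 (SE 0.19). Its groups did not overlap, though by a margin smaller than the spread within ZsGreen+ cells. The makeup of this pair was alike in all libraries, with Ndst1 at 58.2% to 61.0% of the summed TPM of both genes.

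The 3 enzymes that act after N-sulfation are the C5-epimerase Glce, which turns glucuronic into iduronic acid, the 2-O-sulfotransferase Hs2st1 and the 6-O-sulfotransferase Hs6st1. Glce stood at 16.1 and 16.9 CPM in tdTomato+ and 13.2 and 14.0 CPM in ZsGreen+ libraries, a log2 fold change of 0.28 (SE 0.24). Hs6st1, which adds the sulfates that Sulf1 and Sulf2 remove, was read at 15.6 and 16.3 CPM, with 12.6 and 14.0 CPM in ZsGreen+ libraries, a log2 fold change of 0.26 (SE 0.24). For both genes the tdTomato+ libraries lay above the ZsGreen+ libraries, by far less than for Sulf1. Hs2st1 stood at 31.9 and 31.0 CPM against 25.9 and 36.6 CPM, so its tdTomato+ libraries lay between the ZsGreen+ ones, and its log2 fold change was 0.01 (SE 0.23). That value ran from -0.22 without ZsGreen+ replicate 1 to 0.28 without ZsGreen+ replicate 2.

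Of the 10 enzymes, 6 had both tdTomato+ libraries above both ZsGreen+ libraries in CPM and none had both below, while over all genes tested 19.9% were above and 18.2% below. The 6 include Sulf1, for which the family was picked. The median log2 fold change was 0.20 for the 10 enzymes, 0.04 for the 7 synthesis enzymes and -0.01 for all genes tested. On the log2(TPM + 1) scale the median of all genes tested was 0.12.

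**Figure D2:**
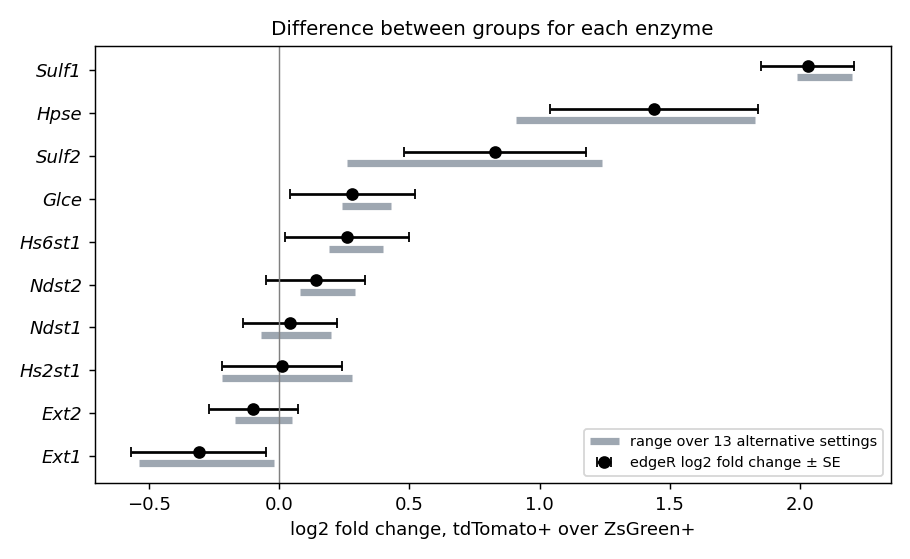
Log2 fold change of tdTomato+ over ZsGreen+ for each enzyme (black points, bars are the standard error of edgeR's fit) with the range of the same value over 13 alternative settings (grey bars). Sulf1 stays between 1.99 and 2.20, Hpse runs from 0.91 to 1.83 and Sulf2 from 0.26 to 1.24, and the grey bars of Ext2, Hs2st1 and Ndst1 cross 0.

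Ext2 was the most abundant enzyme of the family per length in both groups, at 106.4 ± 1.41 TPM (SD, n = 2) in tdTomato+ and 102.8 ± 5.88 TPM (SD, n = 2) in ZsGreen+ cells. Its partner Ext1 was read at a lower level in every library, with Ext2 over Ext1 at 7.11 and 5.61 in tdTomato+ and 6.90 and 4.41 in ZsGreen+ libraries. In ZsGreen+ cells Ext1 and Ndst1 followed at 19.3 ± 7.04 and 19.1 ± 0.898 TPM (SD, n = 2), within each other's spread, then Ndst2 at 12.3 ± 0.742 TPM. Hs2st1, Sulf1, Hs6st1 and Sulf2 came next, at 7.13, 6.37, 5.44 and 5.29 TPM, and each overlapped the next in that order. Glce at 4.20 TPM and Hpse at 2.46 TPM were the lowest. In tdTomato+ cells Sulf1 held the second place at 29.4 ± 0.884 TPM, above Ndst1 at 22.1 ± 2.81 TPM in both libraries, where it was sixth in ZsGreen+ cells. Hpse, last in ZsGreen+ cells, stood at 7.29 ± 3.03 TPM and overlapped Hs2st1 (7.37 TPM) and Hs6st1 (7.17 TPM).

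Balances within a library do not depend on how libraries are scaled. Sulf1 made up 79.7% and 68.8% of the summed TPM of both sulfatases in tdTomato+ libraries and 53.4% and 55.6% in ZsGreen+ libraries. In ZsGreen+ cells the sulfatases were thus read at near-equal levels, and in tdTomato+ cells most sulfatase transcript was Sulf1. The family was picked for the rise of Sulf1, so nothing is read from a shift between groups in a balance that holds Sulf1. The summed TPM of Sulf1 and Sulf2 was 5.02 and 6.12 times that of Hs6st1, the 6-O-sulfotransferase, in tdTomato+ libraries and 2.25 and 2.06 times in ZsGreen+ libraries. Sulf2 alone over Hs6st1 was 1.02 and 1.91 in tdTomato+ and 1.05 and 0.916 in ZsGreen+ libraries, so without Sulf1 the groups overlapped. The 7 synthesis enzymes together stood at 180.6 and 181.0 TPM against 157.0 and 183.6 TPM, with overlapping groups. This sum, unlike the ratios, does depend on how libraries are scaled. These ratios describe transcripts, and sulfation of the chains was not measured.

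Marker RNA of other cell types also moved with the groups, and its counts are read against 19.9% of all genes higher and 18.2% lower in both tdTomato+ libraries. The 10 fibroblast markers summed to 238.3 and 441.5 CPM in tdTomato+ libraries and 100.2 and 124.2 CPM in ZsGreen+ libraries, with 5 of 10 higher in both tdTomato+ libraries, a median log2 fold change of 1.11 and none at 0 in all libraries. The 10 macrophage and monocyte markers summed to 2242 to 4292 CPM in tdTomato+ and 625.4 to 2478 CPM in ZsGreen+ libraries. Their median log2 fold change was 1.09, and 2 of 10 were higher in both tdTomato+ libraries, near the 19.9% of all genes. Most of each sum was Lyz2 (3949.8 and 1967.4 against 2268.2 and 468.9 CPM). The 10 pericyte and smooth muscle markers summed to 1366 to 1838 against 929.9 to 1332 CPM, with 4 higher and 1 lower in both tdTomato+ libraries, and most of each sum was Tagln (1334.6 and 1785.9 against 1299.6 and 893.4 CPM). The median log2 fold change of these 10 was 0.66. Epithelial markers summed to 435.9 to 525.7 against 274.4 to 530.8 CPM, with 5 of 10 higher and 1 lower in both tdTomato+ libraries and a median of 0.9. The overlap of these sums came with Scgb1a1, a club cell gene, at 17.7 CPM in ZsGreen+ replicate 1 and 383.8 CPM in replicate 2. Most lymphatic markers went the other way, with 6 of 7 lower in both tdTomato+ libraries and 3 called lower by edgeR (Thy1, Mmrn1 and Reln), as 0.137% of all genes were. The exception, Lyve1, had the highest CPM of the list in every library, at 502.5 and 839.1 against 407.3 and 592.4, with overlapping groups. The lymphatic sums overlapped as well, at 712.8 and 1003.9 CPM in tdTomato+ and 941.3 and 1230.0 CPM in ZsGreen+ libraries. T, NK and B cell markers summed to at most 20.5 CPM and mesothelial markers to at most 30.7 CPM in any library.

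Sulf2 and Hpse varied more between the tdTomato+ libraries than Sulf1 did. The family was picked for the even rise of Sulf1, so nothing is read from that contrast. Replicate 2 held 1.09 times the Sulf1 CPM of replicate 1, but 2.01 times the Sulf2 and 1.93 times the Hpse. For the 7 synthesis enzymes this ratio was 0.886 for Ndst1, 0.962 for Ndst2, 0.969 for Hs2st1, 1.04 for Hs6st1, 1.05 for Glce, 1.07 for Ext2 and 1.36 for Ext1. Between the ZsGreen+ libraries the ratio was 0.992 for Sulf1, 0.995 for Sulf2 and 1.16 for Hpse. Between the tdTomato+ libraries it was 2.20 for Col1a1 and 2.00 for Col3a1, the fibrillar collagens of fibroblasts, 4.87 for Marco, a scavenger receptor of macrophages, 1.74 for Acta2 and 0.498 for Lyz2, the lysozyme of macrophages. Marco differed from most of its list, whose sum was lower in tdTomato+ replicate 2 (2242.4 CPM) than in replicate 1 (4291.5 CPM). Between the ZsGreen+ libraries the ratio was 2.0 for Col1a1 and 1.31 for Col3a1. Col1a1, Col3a1 and Pi16, a gene of adventitial fibroblasts, were 3.01-, 3.13- and 5.61-fold higher in tdTomato+ cells, beside 4.09-fold for Sulf1. These were the largest folds of the 10 fibroblast markers, of which 5 were higher in both tdTomato+ libraries. Pdgfra, Dpt, Tcf21 and Scara5 of that list stood at 1.16-, 1.29-, 1.25- and 0.97-fold, with overlapping groups. Sulf1 over Col1a1 in TPM was 1.55 and 0.774 in tdTomato+ and 1.07 and 0.563 in ZsGreen+ libraries, so the groups overlapped. The part of other cells' RNA in the values of Sulf1, Sulf2 and Hpse was not tested.

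**Figure D3:**
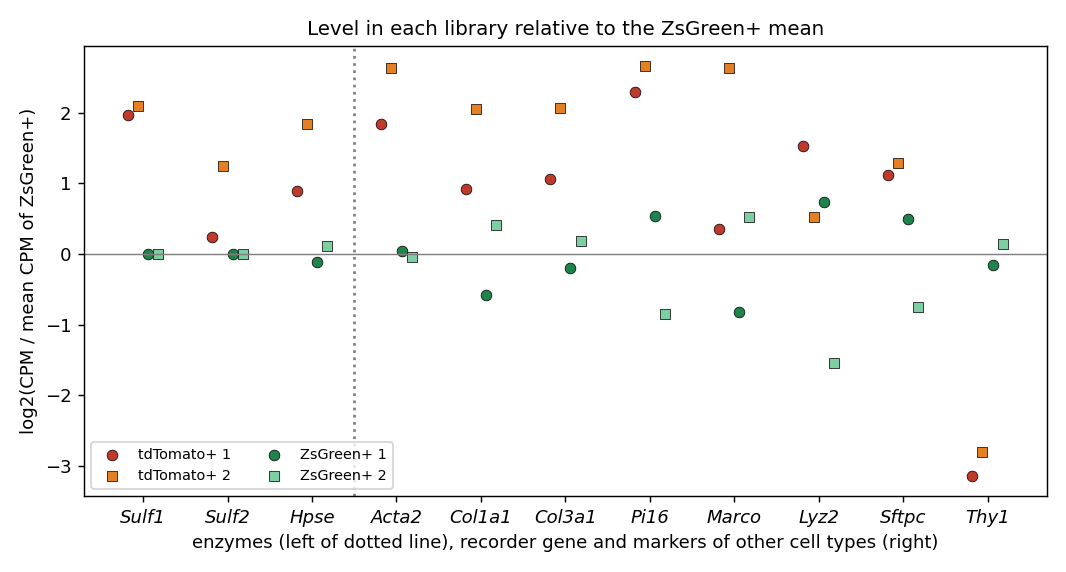
CPM of each gene in each library on a log2 scale relative to its ZsGreen+ mean; circles are replicate 1 and squares replicate 2, red and orange tdTomato+, greens ZsGreen+. The Sulf1 symbols of a group lie together, and the family was picked for that even rise. Sulf2, Hpse, Acta2, Col1a1, Col3a1 and Marco are higher in tdTomato+ replicate 2 than in replicate 1.

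Most close relatives of the 10 enzymes were read at a low level or not at all. Of the exostosin-like genes, Extl3, which starts the heparan sulfate chain, stood at 64.7 to 70.9 CPM in every library (log2 fold change -0.01, SE 0.17). Extl2, which acts on the linkage sugars, stood at 7.72 to 9.36 CPM (log2 fold change -0.06, SE 0.31). Hs3st1 was the only 3-O-sulfotransferase above the filter, at 47.4 and 50.3 CPM in tdTomato+ and 34.2 and 48.2 CPM in ZsGreen+ libraries. This enzyme makes the antithrombin-binding site of heparan sulfate, and its log2 fold change of 0.25 (SE 0.22, edgeR adjusted p = 0.858) was not called. The other 11 relatives, Extl1, Ndst3, Ndst4, Hs6st2, Hs6st3, Hpse2, Hs3st2, Hs3st3a1, Hs3st3b1, Hs3st4 and Hs3st6, had at most 16 counts in any library. The highest was Hs3st3b1 with 16, 5, 7 and 6 counts. Hs6st2, Hs6st3 and Hs3st6 had no count in any library, which allows up to 3 counts, or 0.162 to 0.176 per 1000000 counts, for counting error only. Of the N-sulfation and 6-O-sulfation genes, only Ndst1, Ndst2 and Hs6st1 passed the filter at this depth.

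None of the 84 tested genes in the lists of the surrounding pathway was called by edgeR over all genes, where 0.304% of genes were. Of the 84, 11 had an unadjusted edgeR p under 0.05, as did 1155 of all 13177 genes tested. The 8 tested genes that start the chain and build its linkage to protein lay within 0.2 of 0 on the log2 scale, with a median of -0.03 and none higher in both tdTomato+ libraries. Among them Fam20b, the xylose kinase, had a log2 fold change of -0.19 (SE 0.22), Xylt2, the xylosyltransferase, -0.16 (SE 0.20), B3galt6 -0.07 (SE 0.21) and B4galt7, the galactosyltransferases, 0.05 (SE 0.19). The edgeR adjusted p of this list lay between 0.897 and 0.995.

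Supply of the sulfate donor and of sugar nucleotides was read at like levels as well, with a median of 0.08 on the log2 scale for 13 genes and 4 higher in both tdTomato+ libraries (19.9% of all genes). Papss2, which makes the sulfate donor PAPS, stood near the filter at 3.85 and 3.46 CPM in tdTomato+ and 0.949 and 1.97 in ZsGreen+ libraries (1.31, SE 0.55, edgeR adjusted p = 0.57). The other PAPS synthase, Papss1, stood far higher, at 75.1 and 60.0 CPM in tdTomato+ and 83.0 and 59.0 CPM in ZsGreen+ libraries (-0.07, SE 0.23). Uap1, which makes UDP-N-acetylglucosamine, had 0.40 (SE 0.22), the sulfate transporter Slc26a2 0.29 (SE 0.24) and the nucleotide sugar transporter Slc35d2 0.21 (SE 0.29). Lysosomal breakdown and sulfatase activation had a median of 0.08 over 10 genes and a range from -0.17 to 0.22. It holds Idua, the iduronidase (0.22, SE 0.21), Sumf1, which activates sulfatases including Sulf1 and Sulf2 (-0.17, SE 0.18), and Naglu, a glucosaminidase (0.11, SE 0.19), with an edgeR adjusted p of at least 0.871.

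The core proteins that carry the chains centred on a log2 fold change of 0.11 for 14 tested genes, with 5 higher and 1 lower in both tdTomato+ libraries (19.9% and 18.2% of all genes) and none called by edgeR. Sdc3, syndecan 3, the syndecan with the highest TPM, stood at 345.4 and 364.4 CPM in tdTomato+ and 561.7 and 433.1 CPM in ZsGreen+ libraries (-0.49, SE 0.21, edgeR adjusted p = 0.572). The 3 largest differences upward were in genes of low level. Gpc3, a glypican, measured 5.55 and 12.5 CPM in tdTomato+ and 3.67 and 2.57 CPM in ZsGreen+ libraries (1.54, SE 0.49, edgeR adjusted p = 0.389, and 0.00649 with the replicate block). Gpc6 stood at or under 2.62 CPM (1.75, SE 0.72), as did Sdc2 at or under 2.57 CPM (1.19, SE 0.60). The next largest, Hspg2 (perlecan), was not of low level, at 369.0 and 312.6 CPM in tdTomato+ and 284.1 and 121.1 CPM in ZsGreen+ libraries (0.75, SE 0.38, edgeR adjusted p = 0.678). Gpc3 was higher in tdTomato+ replicate 2 than in replicate 1, as were Sulf2, Hpse and Col1a1. These genes did not move alike between the ZsGreen+ libraries. There Gpc3 was lower in replicate 2, and the ratio of replicate 2 to replicate 1 was 0.995 for Sulf2, 1.16 for Hpse and 2.0 for Col1a1.

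Chondroitin and dermatan sulfate are built on the same linkage sugars by other enzymes, so their genes serve as a neighbouring pathway. Over 14 tested genes the median was 0.07, with 2 higher and 2 lower in both tdTomato+ libraries (19.9% and 18.2% of all genes) and none called by edgeR. Csgalnact1, which commits a chain to chondroitin sulfate, stood at 58.1 and 55.4 CPM in tdTomato+ and 83.1 and 93.5 CPM in ZsGreen+ libraries (-0.64, SE 0.17, edgeR adjusted p = 0.28, and 0.0357 with the replicate block). Chst15, which makes a doubly sulfated chondroitin unit, measured 70.3 and 72.1 CPM in tdTomato+ libraries and 45.0 and 50.8 CPM in the others (0.57, SE 0.18, edgeR adjusted p = 0.364). Dsel, an epimerase of dermatan sulfate, had 0.64 (SE 0.41) and the sulfotransferase Chst7 -0.21 (SE 0.19).

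In the list of heparan sulfate-binding ligands and receptors the largest difference was that of Gpihbp1, the capillary protein that holds lipoprotein lipase. Of that pair the lipase is the one known to bind heparan sulfate. Gpihbp1 stood at 242.8 and 312.4 CPM in tdTomato+ libraries and at 709.1 and 729.4 CPM in ZsGreen+ libraries, and with a log2 fold change of -1.37 (SE 0.21) it missed the threshold at an edgeR adjusted p of 0.0796. Bmp4, a bone morphogenetic protein, had 199.2 and 197.2 CPM in tdTomato+ libraries and 107.7 and 74.0 CPM in the others (1.13, SE 0.22, edgeR adjusted p = 0.144). Slit3, a secreted guidance cue, had 32.5 and 48.8 CPM, with 18.7 and 20.0 CPM in ZsGreen+ libraries (1.07, SE 0.25, edgeR adjusted p = 0.216). Fgf1, a fibroblast growth factor whose receptor binding needs heparan sulfate, was read at 33.6 and 27.3 CPM against 46.7 and 48.7 CPM (-0.65, SE 0.20, edgeR adjusted p = 0.368). Over 24 tested genes of this list 7 were higher and 9 lower in both tdTomato+ libraries, where 19.9% and 18.2% of all genes were, with a median of -0.15.

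**Figure D4:**
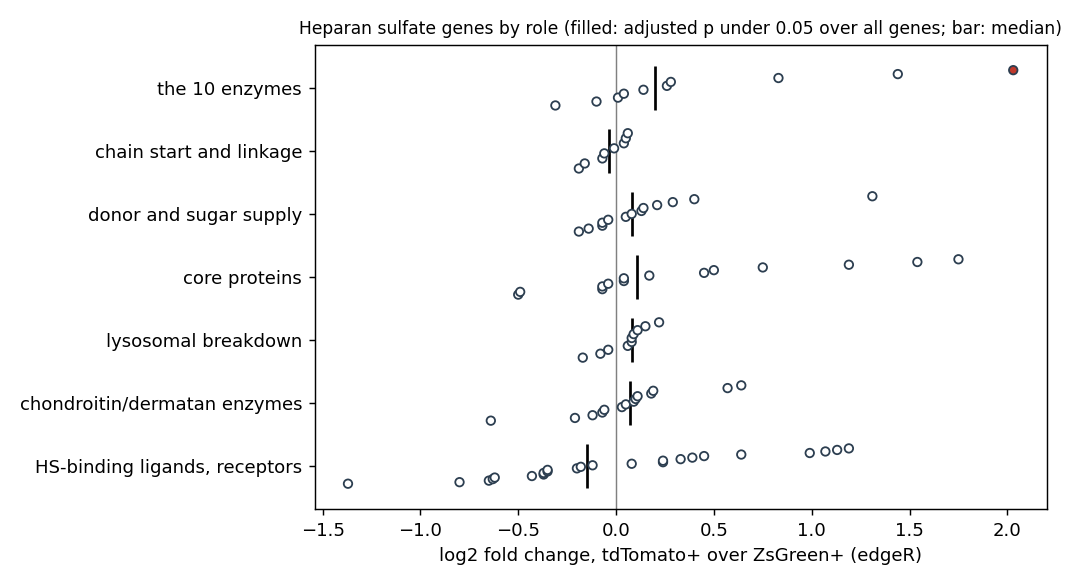
Log2 fold change of tdTomato+ over ZsGreen+ for each tested gene, by role; vertical bars are list medians and the filled point marks the gene called over all 13177 genes, Sulf1. The chain start, supply and lysosomal genes lie close to 0 apart from Papss2 at 1.31, and the core proteins and the binding list spread from -1.37 to 1.75.

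The genes with a pattern most like Sulf1 over the 4 libraries, by Euclidean distance between centred log2 CPM profiles, were Myof (0.132), Kank1 (0.177), Fbln2 (0.263), Arhgap44 (0.276) and Ccdc80 (0.287). Myof encodes myoferlin, a membrane repair protein, and stood at 102.0 and 100.3 CPM in tdTomato+ and 26.3 and 26.0 CPM in ZsGreen+ libraries. Fbln2, fibulin 2 of the extracellular matrix, stood at 256.9 and 251.4 CPM against 68.8 and 75.9 CPM. Kank1, a regulator of cortical actin, stood at 47.8 and 60.7 CPM against 13.7 and 12.4 CPM. Ccdc80, a matrix protein, and Arhgap44, a GTPase-activating protein, had log2 fold changes of 2.24 and 2.35. With 4 libraries in 2 groups this likeness means a similar step between the groups with little spread inside them.

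RefSeq promoter windows (GRCm38.p6) were available for 7 of the 10 enzymes, in 8 windows, of which the 250 bases upstream of the start were searched on both strands for 4 motifs. GGGCGG, the GC box, was present in 6 of the 8 windows and in 32.7% of all 32851 promoters, and TATAAA in 1 of the 8 and in 12.4% of all. TGANTCA, the AP-1 site, was in none of the 8 and in 6.75% of all, and GGAATG, a TEAD site, in 2 of the 8 and in 12.6% of all. The 8 windows held 54.8% to 76.4% G and C, where the median of all promoters was 52.4%. The motif shares were not compared at matched base content. Hs6st1 held the most GC boxes, with 6, and its CpG content (observed over expected 1.02) exceeded that of 95.1% of promoters. Hpse and Sulf2, the enzymes with the largest differences after Sulf1, are shown as the 120 bases before the start, with GC boxes in capitals. The Hpse stretch is chr5:100719717-100719836 and the Sulf2 stretch chr2:166155684-166155803, both on the minus strand.
Hpse: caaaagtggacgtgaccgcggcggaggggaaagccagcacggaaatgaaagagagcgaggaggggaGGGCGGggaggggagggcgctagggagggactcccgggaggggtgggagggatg
Sulf2: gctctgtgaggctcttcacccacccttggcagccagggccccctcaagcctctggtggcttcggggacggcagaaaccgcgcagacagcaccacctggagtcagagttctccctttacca
Hpse had 1 GC box, inside the printed stretch. The single GC box and the single TATAAA of this Sulf2 window lay further upstream, and the other Sulf2 window, at 166155286 to 166155535, had neither. Sulf1, Ndst1 and Ext1 were not in the promoter table.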

How the data were processed

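RNA of sorted cells was amplified over the whole transcriptome before library preparation, per the labels' protocols, with no mention of molecular identifiers, so reads can be copies of 1 molecule and floors cover counting error only. The submitters' processing notes name RSEM 1.3.1, DESeq2 1.4.5 and the builds mm10 and GRCm38, with no role or order. Strand and aligner are not stated there. The authors deposited estimated counts, TPM, FPKM and normalized counts, a signal that was not used here. Estimated counts were rounded and tested with edgeR 4.0.16 (R 4.3.3), as tdTomato+ over ZsGreen+, with the two-sided quasi-likelihood F-test, TMM and filterByExpr at a minimum count of 10, which left 13177 genes. Calls have a Benjamini-Hochberg adjusted p under 0.05 over all of them. SE was derived from the log2 fold change and F. The coefficient of variation between replicates was 26.1%, and 2 against 2 libraries allow no exact two-sided p under 0.333. Samples were grouped by title. The tests were first run on simulated data.

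The members and lists were chosen with earlier results of these data known. Named are all 10 enzymes, their relatives, Acta2, up to 4 genes of each pathway list ranked by edgeR p among those averaging 1 CPM or more, and the 5 genes nearest to Sulf1 outside all lists averaging 5 CPM or more; the marker genes named were chosen after their values were seen. Papss1 was added as the other PAPS synthase and Hspg2 as a core protein of higher level, neither by this rule. Impad1 was read for Bpnt2, and Hs3st5 and Ccl21a are not among the rows analysed here. Besides the genes named, the rule picks 1 pathway gene whose values are not reported here. Alternatives were RLE and upper quartile factors, other filters, DESeq2 1.42.0, limma-voom (limma 3.58.1), limma on log2 TPM, a replicate block, each library left out, and FPKM for levels.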

Additional observations from a re-analysis of the deposited data

How the results depend on the processing

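The number of genes called over the whole table, 40, was 128 without a filter on low counts, 330 with DESeq2, 22 with limma on log2(TPM + 0.1) and 4 to 304 when 1 library was left out. The replicate numbers of the titles were not taken as pairs, since nothing says what they share; deviations of same-numbered libraries correlated at 0.455 over genes, and the fit with the replicate block called 934 genes, Sulf1 and Hpse among the 10 enzymes. Sulf1 kept its sign in all 13 alternatives and its call in 11, and Sulf2, Hpse, Glce, Hs6st1, Ndst2 and Ext1 kept their sign in all 13. The signs of Ndst1, Ext2 and Hs2st1 held in 11, 11 and 9. By FPKM 18 of 20 positions in the order of levels were as by TPM, with Ndst1 and Ext1 exchanged in ZsGreen+ cells. Of 31 other genes named by the rule and tested, sign changes occurred only in genes near 0. They were B3galt6 at 0.07 and 0.08 on TPM with pseudocounts of 1 and 0.1, Extl2 at 0.09 and 0.11, and Extl3 at 0.13 and 0.14 and, with upper quartile factors, at 0.04. With 1 library left out, values ran from -0.13 to 0.01 for B3galt6, -0.06 to 0.18 for B4galt7, -0.03 to 0.24 for Naglu, -0.19 to 0.08 for Extl2 and -0.08 to 0.06 for Extl3. Calls were gained by Gpihbp1 and Arhgap44 without a filter, with DESeq2, with the block and without ZsGreen+ replicate 1, by Bmp4 in the last 3 of these, by Slit3 with DESeq2 and the block, and by Gpc3 and Csgalnact1 with the block. Calls were lost by Myof and Kank1 with limma on log2 TPM at both pseudocounts. Myof, Kank1 and Fbln2 also lost theirs without tdTomato+ replicate 1 and without tdTomato+ replicate 2. So did Ccdc80 without tdTomato+ replicate 2 and Kank1 without ZsGreen+ replicate 2. Log2 fold changes in these left-out fits ran from 1.79 (Fbln2) to 2.22 (Kank1). The cause of these changes was not tested, and the depth of Hpse, Papss2, Gpc6 and Sdc2 limits their precision.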

Other observations

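The deposited table lists Ext2 on the plus strand of chromosome 2, whereas GENCODE M21 and RefSeq place it on the minus strand; its start and end match RefSeq, and no strand was used for the values given. In the list of heparan sulfate-binding ligands and receptors, genes lower in both tdTomato+ libraries included Bmp6, at 196.6 and 170.5 CPM against 324.3 and 242.9 CPM, and Pdgfb, at 118.7 and 161.0 CPM against 210.1 and 220.7 CPM, both chosen after their values were seen and neither called by edgeR (adjusted p = 0.434 and 0.407).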
